A study of Nicotiana tabacum with 6 samples.

Results

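A set of 117 transcript probes gave a clear signal in the aluminium-tolerant tobacco cell line ALT301 and no signal clearly above background in the wild-type line SL. They are 117 of the 43759 transcript probes on the arrays (0.267%) and carry 115 distinct sequence identifiers. A probe was a member when the scanner software flagged it as well above background on every ALT301 array and on none of the 3 SL arrays, and when its mean ALT301 level was at least -3. A level is the log2 signal minus the 75th percentile of the array, so a level of 0 is that percentile and each unit is a factor of 2. The members were thus chosen by their measured difference between the lines, and these differences are given as a description without a test.

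The samples were 3 ALT301 arrays (Al-tolerant, Nicotiana tabacum suspension-cultured cells) and 3 SL arrays (wild-type cells of the line paired with it as isogenic). Both lines were labelled as logarithmic-phase cells under normal condition and were grown at 25 °C in the dark in a modified Murashige-Skoog medium, with no aluminium treatment in the labels. The labels give replicate numbers without saying if each came from its own culture, how ALT301 was obtained, or whether it is a single clone, so the spread between arrays may be technical. Replicates 1 and 2 of each line shared slide 1, and the third replicate of each was on slide 2.

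In acid soils, aluminium ions enter solution and stop the growth of plant roots, binding to cell walls and membranes. Tolerant plants are known to release organic acids that bind the metal outside the cell, to change their cell walls, or to hold the metal in vacuoles. Cultured tobacco cells are used to study the same toxicity without the tissues of a root. Tobacco is a young allotetraploid, so many of its genes exist as near-identical copies from each ancestral species, and an oligonucleotide probe reads the copies that match its sequence.

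The array files name each probe by a sequence identifier and give no gene name or description. None of the 115 member identifiers was found in the RefSeq genes of ASM71507v2, nor was any of the 40425 identifiers on the arrays. The members are therefore given by identifier, without a function, and the cultured-cell identity of the samples could not be checked against marker genes. Total RNA from a whole culture was hybridised, so fewer cells that make a transcript and less of it per cell cannot be told apart.

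The 117 members spanned a wide range of signal in ALT301. Their mean ALT301 levels ran from -2.998 to 4.26 with a median of -1.28, and 31 of them lay above 0. By steps of the log2 level, 33 members lay between -3 and -2, 34 between -2 and -1, 19 between -1 and 0, 17 between 0 and 1, 9 between 1 and 2, and 5 above 2. In intensity units, the members' processed signals ran from 297.6 to 64910 on the ALT301 arrays, with a median of 1386. On the SL arrays they ran from 3.81 to 27.0, with a median of 6.47.

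**Figure D1:**
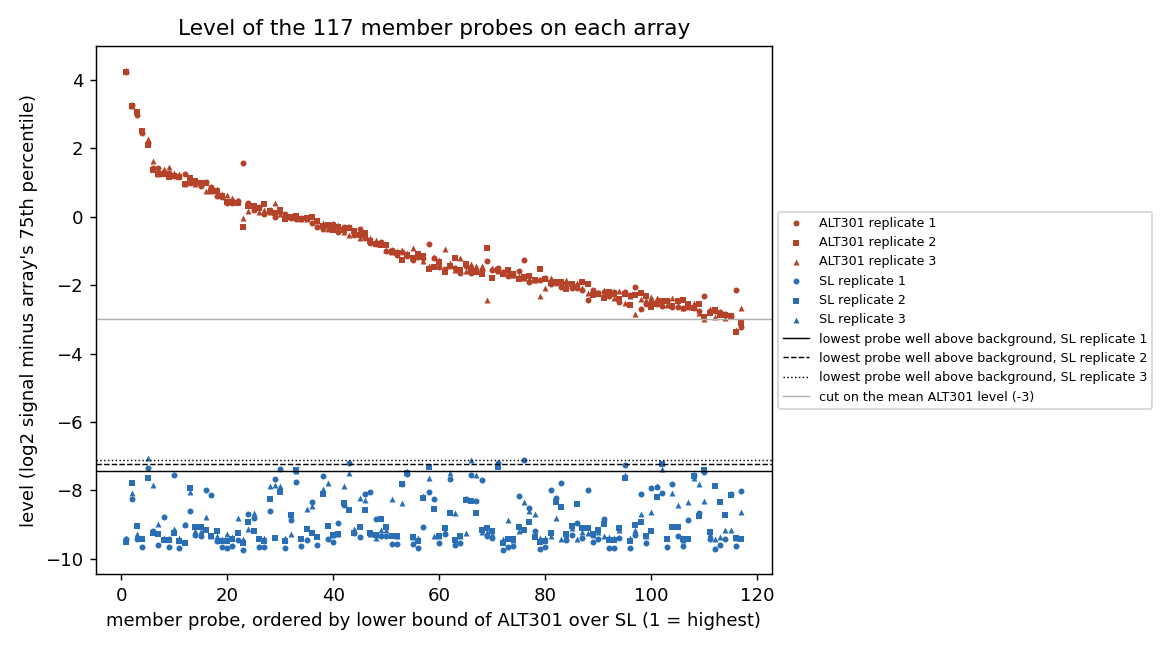
Level of each of the 117 members on each array (vertical axis, log2 signal minus the array's 75th percentile), with members ordered along the horizontal axis by the lower bound of their ratio of ALT301 to SL. The ALT301 points (red) run from 4.29 down to -3.38 and the SL points (blue) all lie below -7. Black lines mark the dimmest signals that the scanner software flagged as well above background on each SL array. The highest SL points lie near these lines, and the median SL levels of -9.28, -9.16 and -9.18 on arrays 1, 2 and 3 lie below them.

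All 117 members kept the lines apart, which the rule fixes: the smallest gap between a member's lowest ALT301 level and its highest SL level was 4.43 log2 units. Since SL was below the detection flag, each ratio was computed as a lower bound, with an SL signal below the lowest well-above-background signal on its array put at that signal. Those lowest signals lay at levels of -7.44, -7.22 and -7.12 on SL arrays 1, 2 and 3. They are no strict detection limit. Some members lay above them without the flag, such as TA18319_4097 at -7.35 on SL array 1 and -7.05 on SL array 3. There the recorded SL signal itself was used, so the bound is not strict. The bounds ran from 19.2-fold to 2927-fold, with a median of 63.1-fold and quartiles of 33.2-fold and 166.0-fold. A bound of at least 64-fold was reached by 58 members, at least 256-fold by 17 and at least 1024-fold by 3. The order of the bounds mostly follows the ALT301 signal, because the SL term is nearly the same for every member.

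The label "present only in ALT301" held to different degrees. The software also gives a more lenient flag, for a signal that is positive and differs from the background. On the SL arrays this lenient flag was set on no array for 41 members, on 1 array for 22, on 2 arrays for 23 and on all 3 arrays for 31. The 41 members without it had SL signals of 3.81 to 7.81 intensity units, and the 31 members with it on all arrays had 5.06 to 27.0. For these 31 a faint SL signal was recorded on every array. The share of other probes with this flag is not given here, so whether faint SL signals are particular to the members cannot be read. The median bound was 60.2-fold for the 41 members and 71.2-fold for the 31.

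Negative-control spots gave a second view of the SL signals. Each array carried 153 of them, with medians of 4.45, 6.31 and 5.10 intensity units on SL arrays 1, 2 and 3. On those arrays 56, 34 and 50 of the 117 members exceeded the 95th percentile of the negative controls. The same share over other probes is not given here, so these counts describe the members alone. The brightest negative-control spot of SL arrays 1 and 2 had 91.7 and 138.0 units and no member exceeded it, while on SL array 3 it had 18.0 units and 8 members did. On the ALT301 arrays every member exceeded the brightest negative-control spot (169.3, 141.4 and 48.6 units).

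The 10 members with the highest bounds included 3 TA identifiers, 2 FG identifiers and 1 probe known only by its probe name. TA14148_4097 (probe A_95_P028391) had levels of 4.23, 4.24 and 4.29 on the ALT301 arrays, against -9.42, -9.50 and -9.41 on the SL arrays, a ratio of at least 2927-fold. FG644694 (A_95_P095653) had levels of 3.26, 3.25 and 3.23 in ALT301 and -8.24, -7.79 and -8.07 in SL, at least 1455-fold. FG623263 (A_95_P001346) had levels of 2.96, 3.07 and 3.08 in ALT301 and -9.42, -9.04 and -9.29 in SL, at least 1258-fold. In each of these 3 the ALT301 arrays lay within 0.12 log2 units of each other, far from the SL arrays. The lenient flag was set on 1 SL array for TA14148_4097, on all 3 for FG644694 and on none for FG623263.

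Probe A_95_P266561, which carries no sequence record, had levels of 2.44, 2.51 and 2.55 in ALT301 and -9.65, -9.44 and -9.39 in SL, at least 868-fold. TA18319_4097 had levels of 2.14, 2.10 and 2.27 in ALT301 and -7.35, -7.64 and -7.05 in SL, at least 666-fold. The first of these had no lenient flag in SL. TA18319_4097 had it on all 3 SL arrays, and its SL levels lay near the lowest well-above-background level of each array. BP532366 had levels of 1.44, 1.37 and 1.62 in ALT301 and -9.20, -9.26 and -7.85 in SL, at least 427-fold. CV016103 had levels of 1.43, 1.26 and 1.25 in ALT301 and -9.59, -9.29 and -8.99 in SL, at least 381-fold. SL array 3 was the highest of the SL arrays for TA18319_4097, BP532366 and CV016103.

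TA13492_4097 had levels of 1.30, 1.25 and 1.38 in ALT301 and -8.78, -9.45 and -9.40 in SL, also at least 381-fold. EB425112 had levels of 1.27, 1.15 and 1.45 in ALT301 and -9.65, -9.45 and -9.38 in SL, at least 374-fold. EH621793 had levels of 1.20, 1.20 and 1.29 in ALT301 and -7.54, -9.25 and -9.13 in SL, at least 360-fold. For TA13492_4097 and EH621793 the highest SL value came from array 1. All 10 lay above the 75th percentile on every ALT301 array.

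Set against all transcripts that ALT301 showed at this strength, the members were a small tail. At a mean level of at least -3, 20304 probes passed the detection flag on all 3 ALT301 arrays. Of these, 20155 were well above background on all 3 SL arrays, 11 on exactly 2, 21 on exactly 1 and 117, the members (0.576%), on none. Among the 20155 probes detected in both lines, 25 were measured at least 64-fold higher in ALT301, and the highest measured ratio was 388-fold. By their lower bounds alone, 6 members had a bound above 388-fold.

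**Figure D2:**
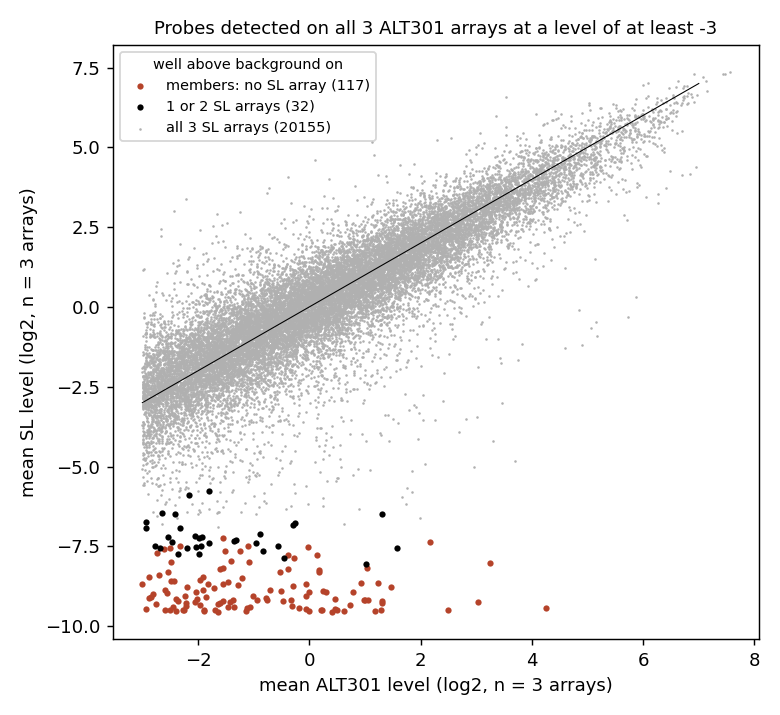
Mean SL level (vertical) against mean ALT301 level (horizontal), both in log2 units over 3 arrays, for the 20304 probes detected on all 3 ALT301 arrays at a level of at least -3. The diagonal marks equal levels. The 117 members (red) lie along the bottom, below the main cloud of 20155 probes (grey), with the 32 probes detected on 1 or 2 SL arrays (black) beside them.

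The edges of the rule ran through a continuous range. Just inside the level limit, TC158190 had levels of -3.23, -3.11 and -2.66 in ALT301 (mean -2.998) and -8.00, -9.42 and -8.64 in SL. EH622906, next inside, had -2.13, -3.38 and -3.30 in ALT301 and -9.64, -9.39 and -9.40 in SL. Just outside were TA12683_4097, at -2.71, -3.22 and -3.24 in ALT301 and -8.44, -9.39 and -8.81 in SL, and EH619313, at -3.01, -3.04 and -3.21 in ALT301 and -8.00, -8.49 and -7.41 in SL. Another 430 probes met the detection rule below the level limit.

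The 21 probes that missed the rule through a single SL array had lower bounds of the ratio of ALT301 to SL, computed in the same way, between 16.4-fold and 442-fold (median 36.04-fold). SL array 1 accounted for 11 of them, SL array 2 for 8 and SL array 3 for 2. EH613891, named here after its values were seen, had levels of 1.02, 0.999 and 1.03 in ALT301 and -9.41, -5.53 and -9.23 in SL. BP533776, named likewise, had -0.61, -0.36 and -0.40 in ALT301 and -9.64, -5.00 and -8.91 in SL. In both, SL array 2 stood more than 3 log2 units above the other SL arrays.

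Replicates of ALT301 agreed closely for most members. The median SD between the 3 ALT301 arrays was 0.09 log2 units over the members (quartiles 0.06 and 0.14) and 0.08 over all 20304 probes detected at the same strength. Replicate 3 was the highest of the 3 for 50 members, replicate 2 for 35 and replicate 1 for 32. An SD above 0.3 was found for 9 members and above 0.5 for 3. CV021711 was the most variable (SD 1.02), with levels of 1.58, -0.31 and -0.03 in ALT301 and -9.74, -9.53 and -9.42 in SL. TA19170_4097 had -1.30, -0.92 and -2.45 in ALT301 (SD 0.79) and -9.32, -9.09 and -9.21 in SL. The third was EH622906, given above (SD 0.70). CV021711 and EH622906 were highest on ALT301 array 1 and TA19170_4097 was lowest on ALT301 array 3, while their SL arrays stayed within 0.4 log2 units of each other.

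For a few members the array held a further probe with the same identifier, and most of these further probes were detected in both lines. Of the 115 member identifiers, 102 had a single probe and 13 had more. Those 13 identifiers carried 13 further probes that were not members (11 identifiers) and 2 pairs of members. All 13 further probes passed the detection flag on every ALT301 array, and 10 of them (8 identifiers) were also well above background on all 3 SL arrays. 12 of the 13 were called higher in ALT301 and 1 lower by limma with Benjamini-Hochberg adjustment. Of all 30942 tested probes, 10597 (34.2%) were called higher and 11431 lower, so most probes were called in one direction or the other. The 13 further probes were read in the same RNA and the same comparison, and nothing is drawn from their counts. 5 of the 10 detected in both lines were at least 16-fold higher in ALT301.

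The 2 members with the highest bounds differed most from their further probes. For TA14148_4097, probe A_95_P232269 had levels of 3.22, 3.32 and 3.29 in ALT301 and 0.85, 0.74 and 0.53 in SL, a measured ratio of 5.93-fold where the member probe gave at least 2927-fold. For FG644694, A_95_P032081 had levels of 2.69, 2.72 and 2.72 in ALT301 and 1.60, 1.54 and 1.54 in SL, a ratio of 2.21-fold. A_95_P263651 of the same identifier had 2.20, 2.22 and 2.27 in ALT301 and 0.09, -0.04 and 0.13 in SL, a ratio of 4.49-fold, where the member probe gave at least 1455-fold. Probes other than the member thus read a clear SL signal for both identifiers, at levels near or above the 75th percentile. Whether the probes of an identifier match the same transcript was not tested.

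FG640720 was the exception in direction. Its member probe A_95_P266886 had levels of -1.59, -1.62 and -1.44 in ALT301 and -8.32, -8.65 and -7.56 in SL (at least 52.3-fold higher), and its further probe A_95_P100673 had -1.40, -1.70 and -1.53 in ALT301 and -0.42, -0.63 and -0.51 in SL, lower in ALT301 with a log2 difference of -1.03. FG642353 had -0.54, -0.42 and -0.44 in ALT301 and -9.26, -9.25 and -9.12 in SL at its member probe (at least 110.9-fold). Its further probe A_95_P071340 had a mean level of 1.09 ± 0.03 in ALT301 and -2.46 ± 0.06 in SL (SD, n = 3 each), a ratio of 11.7-fold.

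In 4 other identifiers the further probes gave measured ratios of 22.9-fold to 47.4-fold, beside member values that are lower bounds, so whether the probes differ in ratio cannot be read. EB442024 was at least 40.6-fold higher at its member probe (ALT301 levels -1.93, -1.91 and -1.90, SL levels -8.21, -8.35 and -8.82), and 27.3-fold and 38.5-fold higher at its further probes. EH623839, TA11850_4097, GT271447, BP535041 and TA19551_4097 are named after their values were seen. EH623839 was at least 43.4-fold higher at its member probe and 47.4-fold at its further probe, TA11850_4097 at least 32.5-fold and 32.5-fold, and GT271447 at least 23.0-fold and 22.9-fold. In these 4 identifiers the SL signal of the further probes was itself well above background. AB004785 was detected on 1 SL array at its further probe, with a bound of 15.5-fold there beside at least 26.2-fold at the member. The further probes of BP535041 and TA19551_4097 were not well above background on any SL array either, and they fell below the level limit in ALT301.

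Both probes of 2 identifiers were members. TA21758_4097 had levels of 0.21, 0.31 and 0.23 in ALT301 and -8.81, -9.18 and -8.66 in SL at A_95_P003821 (at least 182-fold), and -1.20, -1.16 and -1.28 in ALT301 and -9.08, -8.23 and -8.18 in SL at A_95_P002331 (at least 66.0-fold). EB440534 had -1.62, -1.67 and -1.61 in ALT301 and -9.75, -9.53 and -9.41 in SL at A_95_P012011 (at least 49.4-fold), and -2.15, -1.91 and -2.09 in ALT301 and -9.41, -9.10 and -9.22 in SL at A_95_P128277 (at least 37.1-fold). For both identifiers, no probe on the array was well above background in SL.

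**Figure D3:**
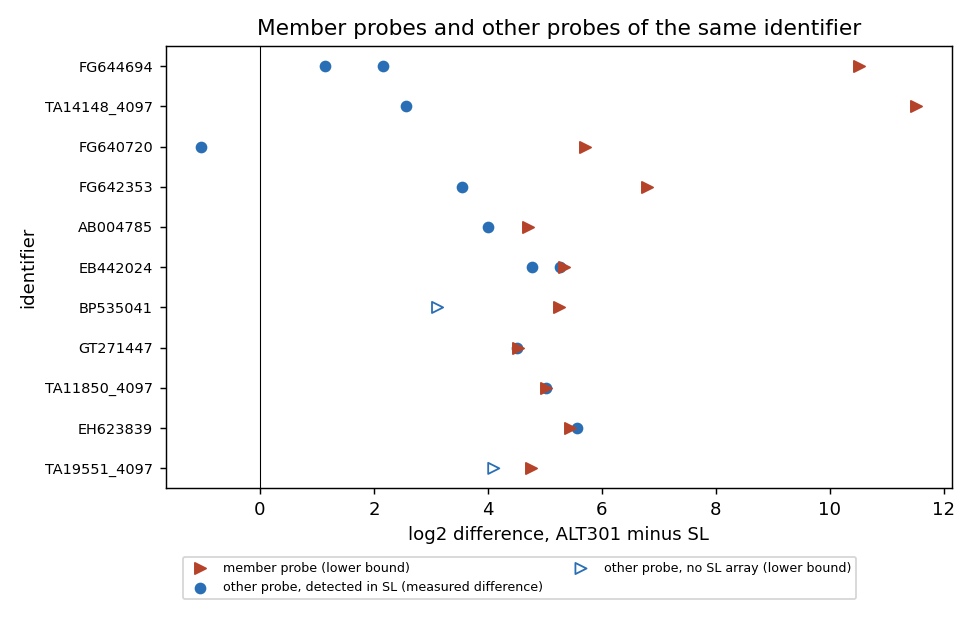
Log2 difference between ALT301 and SL for the 11 member identifiers with a further, non-member probe. Triangles are lower bounds where no SL array was well above background (filled for members, open for other probes). Circles are measured differences of probes detected on at least 1 SL array, and the vertical line marks no difference. FG644694, TA14148_4097 and FG640720 show the widest gaps between probes of 1 identifier, and in the identifiers where a triangle lies beside a circle the member value is still only a bound.

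Slide 2 was also read for probes selected on slide 1, as a description. The rule applied to the 4 arrays of slide 1 alone picked 119 probes, of which 116 were members. Of the 119, 117 (98.3%, exact binomial 95% interval 94.1% to 99.8%) were well above background on the ALT301 array of slide 2 and not on its SL array. These 117 are thus not the same set as the 117 members. Over all 43759 probes, with no limit on the level, that pattern was found on slide 2 in 4.15%. The 98.3% is for probes at the level limit, so these shares are not like for like. Without a level limit, 81.0% of the 675 probes selected on slide 1 kept the pattern. The level limit of -3 lies far above the lowest well-above-background level on the ALT301 array of slide 2 (-7.24). With that limit, the ALT301 flag on slide 2 was thus close to fixed by the selection. The interval counts each probe on its own, although probes of the same transcript move together. It measures no variation between arrays or cultures, since slide 2 held 1 array of each line. The labels do not say if the slides came from separate cultures. The probes that did not keep the pattern, named after their values were seen, were CV018117 and TC145705, which on slide 2 were well above background in SL (levels of -6.98 and -6.76) and had levels of -1.16 and -2.47 in ALT301. The lowest bound on slide 2 among the 119 was 14.1-fold.

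For the 117 members the median bound was 68.5-fold on slide 1 and 59.7-fold on slide 2, where 1 array of each line gives a value with no replicate. The slide 2 bound minus the slide 1 bound had a median of -0.19 log2 units and ran from -1.55 to 0.42. TA19170_4097 was the single member for which the slides differed by over 2-fold. The lowest well-above-background level of the SL array on slide 2 (-7.12) was higher than those on slide 1 (-7.44 and -7.22).

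**Figure D4:**
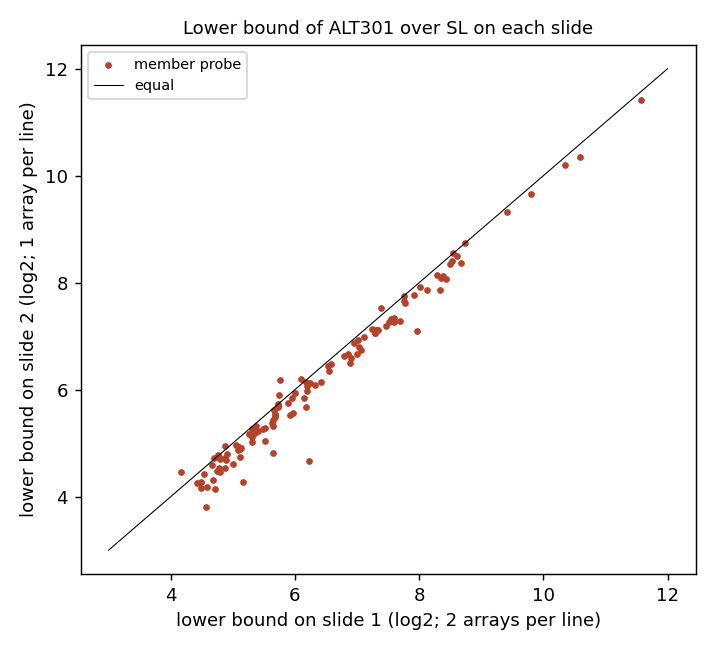
Lower bound of the ratio of ALT301 to SL on slide 2 (vertical, log2, 1 array per line) against that on slide 1 (horizontal, log2, 2 arrays per line) for the 117 members, with a line for equal values. Points lie close to the line and mostly just below it, and the lowest bound on slide 2 is 3.81 log2 units.

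The forms of the identifiers describe where the members' sequences were recorded. TA numbers made up 26 of the 117 members (22.2%), against 23.2% of the 20304 probes detected at the same strength in ALT301. The prefix BP had 22 members (18.8%, against 13.1%), EB 19 (16.2%, against 22.1%) and CV 12 (10.3%, against 3.71%). EH had 9 members (7.69%, against 5.12%), FG 8 (6.84%, against 10.7%), DW 6 (5.13%, against 4.18%) and DV 4 (3.42%, against 6.75%). TC had 3 members (2.56%, against 1.05%). Per 100 such probes, CV had 1.59 members, TC 1.40, EH 0.866, BP 0.825 and DW 0.707. TA had 0.553, EB 0.423, FG 0.369 and DV 0.292, against 0.576 over all forms. Forms with under 3 members ran from 0 (such as AJ) to 14.3 (GT, 1 member). These shares were not tested.

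**Figure D5:**
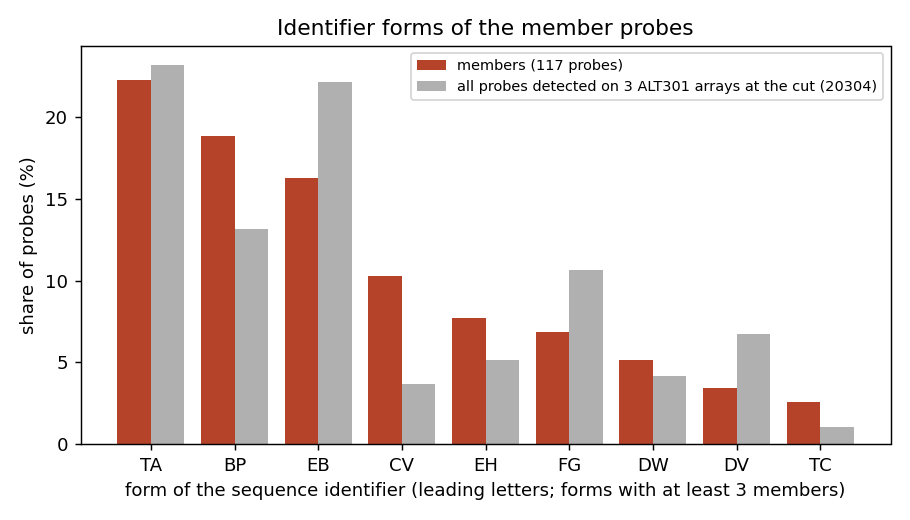
Share of probes (vertical, %) by the leading letters of the identifier (horizontal) among the 117 members (red) and among all 20304 probes detected on 3 ALT301 arrays at the same level limit (grey), for forms with at least 3 members. CV had 10.3% of the members and 3.71% of the comparison set, and TC had 2.56% and 1.05%.

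Within the forms, the bounds differed more between members than between groups. TA members had a median bound of 125.5-fold (25.0 to 2927), and 10 of 26 lay above the 75th percentile in ALT301. BP members had a median of 65.9-fold (21.4 to 427) with 7 of 22 above that percentile, and EB members 42.4-fold (23.6 to 374) with 3 of 19. For CV the median was 56.3-fold (27.2 to 381), for EH 46.9-fold (up to 360), for FG 102.1-fold (20.7 to 1455) and for DW 134.0-fold (28.3 to 301). The ranges of all these forms overlapped.

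Some GenBank accession numbers were taken as a further group by their form and prefix alone. What kind of record each one is was not checked. None of the 274 probes with an accession of 1 letter and 5 digits that were detected at this strength in ALT301 was a member. Among accessions of 2 letters and 6 digits, the members were 1 of 218 such probes with the prefix AB, 2 of 149 with AF and 2 of 62 with DQ, beside 0.576% over all forms. The prefixes AJ (277 probes), AM (233), AY (115), EF (25), EU (17) and FJ (8) held no member. DQ350338 had levels of -0.06, 0.02 and -0.01 in ALT301 and -7.75, -7.40 and -7.42 in SL, at least 152-fold. AF068723 had -0.74, -0.83 and -0.77 in ALT301 and -9.34, -8.85 and -9.17 in SL, at least 89.3-fold. DQ350335 had -1.12, -1.06 and -0.995 in ALT301 and -9.56, -9.35 and -9.33 in SL, at least 73.5-fold. The SD between the ALT301 arrays was 0.04 for DQ350338, 0.04 for AF068723 and 0.06 for DQ350335.

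AF193771 had -2.04, -2.30 and -2.85 in ALT301 and -9.29, -9.01 and -9.17 in SL, at least 29.1-fold, with a wider spread between ALT301 arrays (SD 0.41). AB004785 had -2.63, -2.62 and -2.39 in ALT301 and -7.80, -9.07 and -8.08 in SL, at least 26.2-fold.

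The reverse pattern was rarer at this strength. With the lines exchanged, the same rule gave 44 probes (0.101% of all), which were well above background on all 3 SL arrays at a mean level of at least -3 and on no ALT301 array, beside the 117 members. As a share of the probes detected at that strength in the line itself, this was 0.576% of 20304 for ALT301 and 0.215% of 20424 for SL. The median bounds were close, at 63.1-fold for the ALT301-only probes (ALT301 over SL) and 66.2-fold for the SL-only probes (SL over ALT301), and the highest were 2927-fold and 808-fold. The sets are fixed by the same comparison, so their counts were not tested against each other.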

How the data were processed

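Total RNA (200 ng per sample, per the labels' protocols) was labelled with Cy3 and hybridised to 1-colour Agilent arrays. The deposited signal intensity values come from Agilent Feature Extraction (version 11.5.1.1 per the file headers), background-subtracted within each array and not scaled between arrays. That software also set the 0 or 1 flags for detection. The authors' deposited log2 table matches those values after subtraction of each array's 75th percentile and of each probe's median: its columns correlated at 0.999 or higher with them over probes. Its column medians were 0.03, -0.01 and -0.01 for ALT301 and -0.03, -0.0033 and 0.03 for SL, with 0 columns that could not be tied to a sample. Its making is not stated in the labels.

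Here, log2 processed signals were averaged over the spots of a probe (11 probes had 5 spots and no member had more than 1), and the 75th percentile of each array's 43759 probes was subtracted. No member spot was saturated or marked as an outlier. Median signals lay between 247.4 and 323.0 intensity units per array and 68.0% to 70.8% of probes were well above background. With 3 arrays per line, their number limits the precision. A lower bound is the mean ALT301 level minus the mean of its SL levels, each raised, where lower, to the dimmest level that passed the detection flag on its array.

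Calls over all probes came from limma 3.58.1 (R 4.3.3, functions lmFit and eBayes, two-sided, Benjamini-Hochberg, adjusted p threshold 0.05) on the 30942 probes well above background on at least 3 of 6 arrays. The step was also run on simulated data with few changed probes and independent noise on each array. These data differ in both respects, so that run does not show how reliable the calls are here. Same-numbered arrays of the lines deviated together from their line means (r over probes of 0.322, 0.139 and 0.104). All exceeded the limit of 0.1, and arrays of unlike number had r of -0.210 to 0.0875. The deviations cancel out within each line, so the values for same and unlike numbers are not independent, and 0.104 lay close to 0.0875. The labels' numbers may thus pair the arrays, on the basis of the data alone. Replicate 3 of each line was also on slide 2, so number and slide cannot be told apart there. The calls given above came from a fit without a term for the pairs, and a fit with replicate as a block is given below. The members, lists and naming rules were chosen with earlier results of these data known. Named were the 10 members with the highest bounds, the 2 on each side of the level limit, identifiers with several members, the 5 members that differed most from a further probe detected in SL, the 3 most variable members, and members with AB, AF or DQ records. Identifiers outside these rules are said in the text to be named after their values were seen. The planned groups by function could not be run without gene names. No probe sequence is given in the files used here.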

Additional observations from a re-analysis of the deposited data

How the results depend on the processing

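The number of members was 116 to 128 with 1 array left out, 163 and 84 with level limits of -4 and -2, 138 with detection allowed on 1 SL array, 117 under median scaling, 119 on slide 1 alone and 116 with outlier spots left out. Without the level limit it was 547, and with the lenient flag for SL it was 41, since each changes the rule itself. The median bound of 5.98 log2 units (63.1-fold) was 5.84 to 6.03 with 1 array left out, 5.35 and 6.84 with limits of -4 and -2, 1.90 without a limit, 5.91 with the lenient flag, 5.85 with detection allowed on 1 SL array and 6.02 under median scaling. The replicate spread of this median was only 0.03. As a difference of means, it was 7.66 in the deposited table, which does not raise SL values to the lowest well-above-background level. It was 4.22 (18.7-fold) under normexp, whose offset of 50 exceeds every SL member signal. The share of probes selected on slide 1 that kept the pattern on slide 2 was 98.8% with a limit of -2 and 81.0% without one. The replicate block called 10648 probes higher in ALT301, against 10597 without it, and no alternative run on the calls moved the count by over 1.5 times or the further probes from 12 called higher. Signal over background limits the ratio of every member to a bound, and the arrays cannot show whether SL lacked these transcripts.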

Other observations

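Several members had neighbouring accession numbers, a pattern noticed after the values were seen and not tested. Between CV021103 and CV021120 the array held 11 probes, of which 3 were members, beside 0.267% of all 43759 probes. CV021111 had a mean level of -2.44 ± 0.11 in ALT301, with SL at background (at least 28.2-fold), CV021112 had -1.13 ± 0.19 (at least 70.1-fold) and CV021114 had -2.49 ± 0.15 (at least 27.3-fold; SD, n = 3 each). Of the other probes in that run, 5 were well above background on all 6 arrays, with ratios of ALT301 to SL between 0.542 and 2.29, and 3 were not well above background on any array. All records starting with CV02 held 8 members among 242 probes detected at the same strength in ALT301 (3.31%). This was beside 12 of 753 for all CV records (1.59%) and 0.576% over all forms. The start CV02 was also picked after the values were seen.

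Between DQ350326 and DQ350340, 2 of 8 probes were members, DQ350335 and DQ350338, beside 0.267% of all probes on the arrays. The other probes detected in both lines went in both directions: DQ350327 was 3.76-fold higher in ALT301, DQ350337 was lower with a log2 difference of -1.12, and both probes of DQ350326 were lower with -1.74 and -1.66. Across the face of the array, the 117 members lay in all corners, with 25 at upper left, 38 at upper right, 31 at lower left and 23 at lower right.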
